A study of Mus musculus with 10 samples.

Results

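The auxiliary subunits of voltage-gated calcium channels were described in mouse pancreatic islets sampled at ZT8 and at ZT20. The set was defined by gene name and holds 10 genes: Cacnb1, Cacnb2, Cacnb3 and Cacnb4 for the β subunits, Cacna2d1, Cacna2d2, Cacna2d3 and Cacna2d4 for the α2δ subunits, and Cacng4 and Cacng6 for 2 of the γ subunits. Each of 9 genes had 1 row of the array table that names it and no other gene. These 9 rows stand among 32814 rows that name at least 1 gene. Cacnb3 was not analysed here.

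RNA was labelled from 10 islet samples, with 1 array per sample and 5 arrays per group. All islets came from male C57BL/6 mice (C57Bl/6J in the study's methods) aged 10 weeks, kept on a cycle of 12 h light and 12 h dark, and the islets were isolated with collagenase and picked by hand. The study's methods place some weeks of acclimatization before the mice were killed, so the age at islet isolation may be higher. ZT counts the hours since the lights went on: ZT8 lies in the light phase, when mice rest, and ZT20 in the dark phase, when they are active. By the study's methods all mice were killed at the same clock time, the ZT8 mice on a normal light cycle and the ZT20 mice on an inverted cycle, so phase and housing cycle cannot be told apart. No genotype, transgene or drug separated the groups, and both groups of islets were kept in culture (for 24 h in one label and overnight in another) before RNA was taken. The titles of the samples use CT8 and CT20 where the time point label has ZT8 and ZT20. The groups are named here by the time point label. The comparison asks whether the genes of the channel's accessory proteins differ in islet RNA between the rest phase and the active phase.

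A voltage-gated calcium channel consists of a pore-forming α1 subunit and accessory subunits that attach to it. The β subunits sit on the inner face of the pore protein, bring the channel to the cell surface and tune how easily it opens. The α2δ subunits are anchored to the outer face of the membrane and raise the number of channels there, and the γ subunits are membrane-spanning proteins, several of which are better known as partners of AMPA-type glutamate receptors. In the β-cell, calcium entry through these channels during glucose-driven electrical activity triggers the exocytosis of insulin granules.

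The windows around transcription starts are shown for the 3 genes on which the results below turn: Cacng6, the 1 gene whose 5 arrays per group did not overlap, and Cacnb1 and Cacnb2, the 1 pair whose difference within an array did not overlap. They were chosen after these values had been seen. Each window holds the 250 bases before and the 50 bases after a start annotated by RefSeq on GRCm38.p6, is written 5′ to 3′ on the strand of the gene, and carries its CG dinucleotides in capitals. The Cacng6 window lies at chr7:3424412-3424711 on the plus strand, the Cacnb1 window at chr11:98022578-98022877 on the minus strand and the Cacnb2 window at chr2:14604056-14604355 on the plus strand.
Cacng6: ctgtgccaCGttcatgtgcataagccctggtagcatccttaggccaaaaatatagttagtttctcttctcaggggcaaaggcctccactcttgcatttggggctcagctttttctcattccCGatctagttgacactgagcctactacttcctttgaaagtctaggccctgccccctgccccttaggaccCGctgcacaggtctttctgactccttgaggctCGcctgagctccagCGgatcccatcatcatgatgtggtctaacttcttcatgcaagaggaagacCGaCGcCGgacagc
Cacnb1: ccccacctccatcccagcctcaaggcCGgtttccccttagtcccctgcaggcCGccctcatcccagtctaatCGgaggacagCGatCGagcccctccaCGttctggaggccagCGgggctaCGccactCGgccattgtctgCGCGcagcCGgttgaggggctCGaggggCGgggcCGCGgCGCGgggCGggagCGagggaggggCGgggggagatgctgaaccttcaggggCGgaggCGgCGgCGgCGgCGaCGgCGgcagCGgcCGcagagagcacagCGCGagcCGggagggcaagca
Cacnb2: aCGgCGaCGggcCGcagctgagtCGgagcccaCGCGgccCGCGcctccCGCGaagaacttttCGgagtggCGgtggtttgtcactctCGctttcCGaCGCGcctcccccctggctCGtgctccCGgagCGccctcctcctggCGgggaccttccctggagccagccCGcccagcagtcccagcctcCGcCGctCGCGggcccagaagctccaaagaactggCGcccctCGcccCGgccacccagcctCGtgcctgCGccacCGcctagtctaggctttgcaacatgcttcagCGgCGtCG

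The windows of the pair of β subunit genes were dense in CG dinucleotides, with 34 for Cacnb1 (73.7% G or C) and 35 for Cacnb2 (71.7%). The Cacng6 window held 8 (52.7%), close to the median of 7 over all 32851 windows of the table, whose median base composition was also 52.7%. Cacnb1 and Cacnb2 each have a second annotated start with fewer CG dinucleotides (3 and 4), and the array does not say which start gives its signal. The table held 13 windows for 8 of the 10 genes, and Cacna2d4 and Cacng4 had none there. Short motifs that clock-related transcription factors are known to bind were searched in all windows on both strands. The E-box CACGTG was in 7.15% of all windows, the REV-ERB and ROR site AGGTCA in 16.3%, and the D-box, read as TTATGTAA or TTACGTAA, in 1.06%. None of the 13 windows of the calcium channel genes held any of them. That says only that these letters are not in these windows. The motifs, like the windows printed, were chosen after the array values had been seen.

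Of the 9 genes, 7 had a lower mean at ZT8 than at ZT20 and 2, Cacnb2 and Cacna2d1, had a higher mean. The differences, given throughout as log2 signal at ZT8 minus log2 signal at ZT20, ran from -0.22 for Cacng6 to 0.15 for Cacna2d1, with a median of -0.08. Over all tested rows the median was -0.03 and 61.9% of rows were negative. No gene of the set passed the test (limma, Benjamini-Hochberg adjusted over 32814 rows, 0.05), against 0.744% of all tested rows, 186 higher and 58 lower at ZT8. That share was not stable. Leaving out ZT8 replicate 2, 3 or 4 or ZT20 replicate 4 left 1 row higher and 0 lower. Fitting all transcript rows with every array kept gave the same counts, and array weights gave 598 higher and 232 lower. The adjusted p-values of the 9 genes lay between 0.0726 and 0.876. The standard errors of the differences lay between 0.05 and 0.08 on the log2 scale, and the widest bound of any 95% confidence interval was a 1.26-fold difference. The values of every array are shown in the plot of the 9 genes by group.

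**Figure D1:**
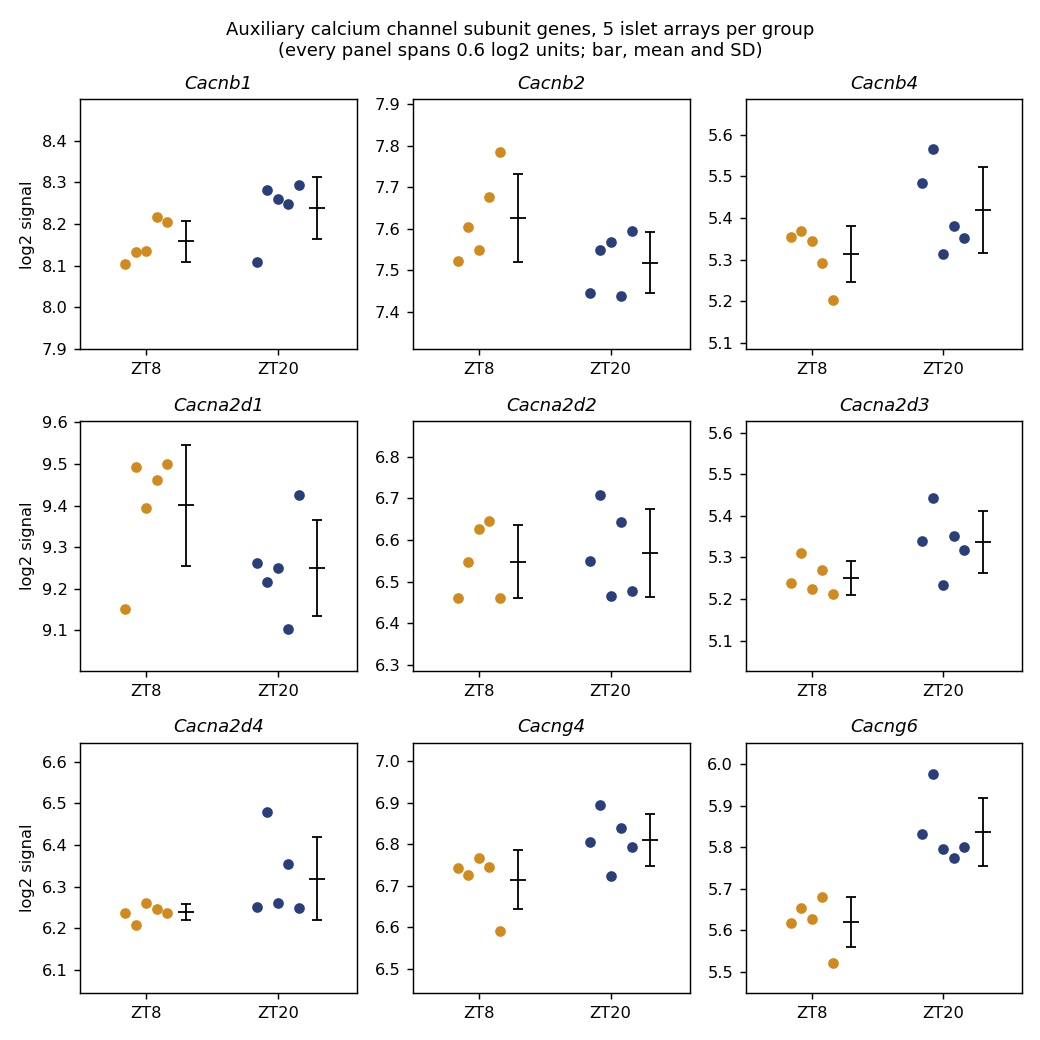
The log2 array signal of 9 auxiliary calcium channel subunit genes (vertical axis, a different range of the same width in each panel) in 5 ZT8 and 5 ZT20 islet arrays. Points are arrays in the order of their replicate numbers, and bars give the mean and SD. The ZT8 and ZT20 points lie apart only for Cacng6, from 5.52 to 5.68 at ZT8 and from 5.77 to 5.98 at ZT20.

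Among the β subunits, Cacnb1 encodes the isoform that couples the channel of skeletal muscle to contraction and is also made in other tissues. Its log2 signal was 8.10, 8.13, 8.14, 8.22 and 8.20 in ZT8 replicates 1 to 5, and 8.11, 8.28, 8.26, 8.25 and 8.29 in ZT20 replicates 1 to 5. Apart from replicate 1, which lay among the ZT8 values, the ZT20 arrays were all above the ZT8 arrays. The means were 8.16 ± 0.0495 at ZT8 and 8.24 ± 0.0752 at ZT20 (SD, n = 5 each). The means differed by -0.08 (SE 0.05, with a 95% confidence interval from -0.19 to 0.03), which missed the threshold (limma, adjusted p = 0.398; exact permutation test, two-sided p = 0.0714).

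Cacnb2 encodes the main β subunit of heart muscle channels and is also found in islet cells. Its log2 signal was 7.52, 7.60, 7.55, 7.68 and 7.78 in ZT8 replicates 1 to 5, and 7.45, 7.55, 7.57, 7.44 and 7.60 in ZT20 replicates 1 to 5. The highest values, in ZT8 replicates 4 and 5, and the lowest, in ZT20 replicates 1 and 4, lay on opposite sides, and the values between them overlapped. The means were 7.63 ± 0.106 at ZT8 and 7.52 ± 0.0724 at ZT20. The difference of 0.11 (SE 0.06, interval -0.02 to 0.24) did not pass (limma, adjusted p = 0.346; exact permutation p = 0.103), and it was 0.07 without ZT8 replicate 5.

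Cacnb4 encodes a β subunit of brain channels, and its loss causes ataxia and seizures in lethargic mice. Its log2 signal ran from 5.20 to 5.37 at ZT8, with a median of 5.35, and from 5.31 to 5.57 at ZT20, with a median of 5.38. ZT20 replicates 1, 2 and 4, at 5.48, 5.57 and 5.38, lay above all ZT8 arrays, and ZT20 replicates 3 and 5 overlapped them. The means were 5.31 ± 0.0678 and 5.42 ± 0.103, a difference of -0.11 (SE 0.06, interval -0.23 to 0.02) that did not pass (limma, adjusted p = 0.344; exact permutation p = 0.103). It was -0.07 without ZT20 replicate 2.

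Among the α2δ subunits, Cacna2d1 encodes the isoform of muscle, neurons and endocrine cells that binds gabapentin. Its log2 signal was 9.15, 9.49, 9.39, 9.46 and 9.50 in ZT8 replicates 1 to 5, and 9.26, 9.22, 9.25, 9.10 and 9.42 in ZT20 replicates 1 to 5. ZT8 replicate 1 was among the lowest of the 10 arrays, ZT20 replicate 5 lay within the ZT8 range, and the other ZT8 arrays were above the other ZT20 arrays. The means were 9.40 ± 0.145 and 9.25 ± 0.115, the largest spread between replicates of the 9 genes. The difference of 0.15 (SE 0.08, interval -0.02 to 0.32) did not pass the test (limma, adjusted p = 0.313; exact permutation p = 0.127). Without ZT8 replicate 1 the difference was 0.21, with an adjusted p of 0.104 (limma), and without ZT20 replicate 4 it was 0.11. These arrays also had the lowest signals of most β-cell genes read, such as Slc2a2 (9.43 in each) and Ucn3 (10.8 and 11.1). For Iapp and Mafa this was not so. The part of cell make-up in this difference was not tested.

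Cacna2d2, which encodes a second gabapentin-binding isoform known from cerebellar Purkinje cells, had the smallest difference. Its log2 signal ran from 6.46 to 6.65 at ZT8 and from 6.46 to 6.71 at ZT20, so the groups spanned nearly the same values. The means were 6.55 ± 0.0875 and 6.57 ± 0.106, and the difference was -0.02 (SE 0.06, interval -0.16 to 0.11; limma, adjusted p = 0.876; exact permutation p = 0.651). Its sign turned with the scaling of the arrays: the difference was 0.03 with arrays centred on their medians and 0.01 after quantile normalization.

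Cacna2d3, an isoform of neurons, had log2 signals from 5.21 to 5.31 at ZT8 (median 5.24) and from 5.23 to 5.44 at ZT20 (median 5.34). ZT20 replicate 3 lay within the ZT8 range and the other ZT20 arrays were above the ZT8 maximum. The difference was -0.09 (SE 0.05, interval -0.19 to 0.02; limma, adjusted p = 0.354; exact permutation p = 0.0476). For Cacna2d4, the isoform of photoreceptors in the retina, the ZT8 arrays lay close together, from 6.21 to 6.26, and the ZT20 arrays ran from 6.25 to 6.48. ZT20 replicates 2 and 4, at 6.48 and 6.35, were above every ZT8 array and the remaining ZT20 arrays were between 6.25 and 6.26. The difference was -0.08 (SE 0.05, interval -0.20 to 0.03; limma, adjusted p = 0.417; exact permutation p = 0.0317), and it was -0.04 without ZT20 replicate 2.

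Among the γ subunits, Cacng4 encodes a protein that mainly accompanies AMPA-type glutamate receptors. Its log2 signal was 6.74, 6.73, 6.77, 6.75 and 6.59 in ZT8 replicates 1 to 5, and 6.80, 6.89, 6.72, 6.84 and 6.79 in ZT20 replicates 1 to 5. ZT20 replicate 3 overlapped the ZT8 arrays, ZT8 replicate 5 was lowest, and the other ZT20 arrays were above all ZT8 arrays. The means were 6.71 ± 0.0704 and 6.81 ± 0.0627, and the difference of -0.10 (SE 0.05, interval -0.21 to 0.01) did not pass (limma, adjusted p = 0.331; exact permutation p = 0.0397).

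Cacng6 encodes a γ subunit of striated muscle that lowers T-type calcium current when expressed with the channel in cell lines. Its log2 signal was 5.62, 5.65, 5.63, 5.68 and 5.52 in ZT8 replicates 1 to 5, and 5.83, 5.98, 5.80, 5.77 and 5.80 in ZT20 replicates 1 to 5. All 5 ZT20 arrays were above all 5 ZT8 arrays. The means were 5.62 ± 0.0599 at ZT8 and 5.84 ± 0.0817 at ZT20, so that the signal was 1.16-fold higher at ZT20. The difference of -0.22 (SE 0.05, interval -0.33 to -0.10) had an unadjusted limma p of 0.00136 and an adjusted p of 0.0726, which missed the threshold. The exact permutation p was 0.0079, the smallest that regrouping 5 against 5 arrays can give. Of all tested rows, 5.92% had groups that did not overlap, and 2.54% did so with ZT8 lower, against 1 of the 9 genes. Under 1 alternative, the weighting of arrays by quality, Cacng6 passed (difference -0.18, adjusted p = 0.0497), and its adjusted p-values ran up to 0.166 over the alternatives.

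At unadjusted limma p under 0.05, 1 of the 9 genes (Cacng6) passed, against 18.5% of all tested rows. At exact permutation p under 0.05, 4 passed (Cacna2d3, Cacna2d4, Cacng4 and Cacng6), all with lower values at ZT8, against 18.1% of all tested rows. This count of 4 fell to 1 when arrays were centred on their medians (Cacng6) and to 2 after quantile normalization (Cacnb1 and Cacng6), while Cacng6 was in it under each of these scalings and with any 1 array left out. The lower differences shrank with centred arrays, to -0.03 for Cacnb1, Cacna2d3 and Cacna2d4, -0.04 for Cacng4 and -0.05 for Cacnb4, and to -0.16 for Cacng6. The higher differences grew with centred arrays, to 0.16 for Cacnb2 and 0.20 for Cacna2d1. Quantile normalization gave -0.03 for Cacna2d3, -0.04 for Cacna2d4, -0.05 for Cacnb4 and 0.10 for Cacna2d1. It gave -0.07 for Cacng4, -0.17 for Cacng6 and 0.10 for Cacnb2, while Cacnb1 moved further from 0, to -0.11.

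The sign of a difference moved with the level of the signal over the whole table. The tested rows were ordered by mean signal and divided into 5 bins of equal number. The median difference was -0.07 in bin 2, which holds Cacnb4 and Cacna2d3, and -0.06 in bin 3, which holds Cacna2d2, Cacna2d4, Cacng4 and Cacng6 and in which 71.1% of rows were negative. It was -0.000868 in bin 4, which holds Cacnb1 and Cacnb2, and 0.05 in bin 5, the highest, which holds Cacna2d1. The 6 genes of bins 2 and 3 thus all had the sign of most rows at their level. In bin 4, where 50.3% of rows were negative, Cacnb1 and Cacnb2 lay on opposite sides of the median. The part of signal level in the differences was not tested.

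**Figure D2:**
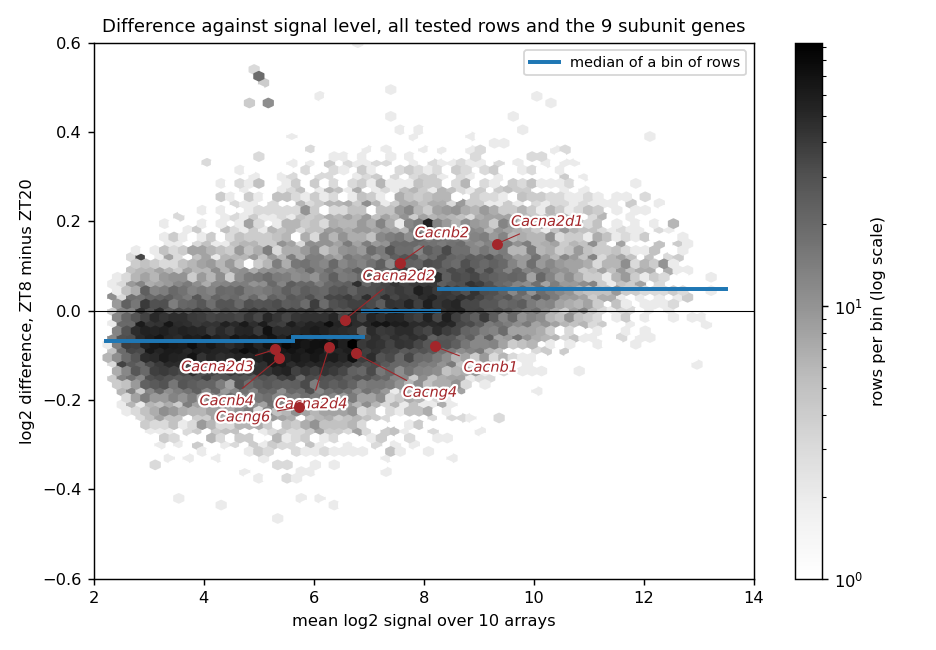
The difference of each tested row, log2 signal at ZT8 minus ZT20, against its mean log2 signal over 10 arrays, as a density of rows (grey, log scale), with the 9 subunit genes as red points and the median of each of 5 bins of rows as blue lines. The medians go from -0.07 at low signal to 0.05 at high signal, and a few rows with larger differences fall outside the vertical axis.

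The arrays themselves differed in the same direction at low signal. The mean log2 signal of 23 rows that hold background controls was 4.14 ± 0.0449 at ZT8 and 4.27 ± 0.0367 at ZT20 (exact permutation p = 0.0079, no overlap), a difference of -0.13. The control rows had means between 2.13 and 7.07 with a median of 3.50. All 9 subunit genes were above this median, and only Cacnb1, Cacnb2 and Cacna2d1 were above the highest of them. ZT20 replicate 2, which had the highest background mean of the 10 arrays (4.33), was also the highest of the 10 for Cacnb4, Cacna2d2, Cacna2d3, Cacna2d4, Cacng4 and Cacng6. ZT8 replicate 5 had the lowest background mean (4.07) and the lowest value of its group for 5 of the 9 genes. The same array was the highest of the 10 for Cacnb2 and Cacna2d1. The part of the background signal in the results was not tested.

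The genes of a family were also compared with each other within an array, where a shift equal for all signals of the array cancels. A shift that differs with signal level, as between the bins above, does not cancel between genes of different bins. Each value is the log2 signal of one gene minus that of another on the same array. Signals of different probes do not rank the genes by abundance, and only the difference of this value between the groups was read. The 10 pairs were tested by exact permutation, two-sided, with p-values adjusted over the 10 pairs, and none passed at 0.05. A single pair at the smallest p that such a test can give does not pass after adjustment over 10 pairs.

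Cacnb1 minus Cacnb2 was 0.58, 0.53, 0.59, 0.54 and 0.42 in ZT8 replicates 1 to 5, and 0.66, 0.73, 0.69, 0.81 and 0.70 in ZT20 replicates 1 to 5. Every ZT20 array was above every ZT8 array. The means were 0.53 ± 0.0673 and 0.72 ± 0.0563, which differed by -0.19 (exact permutation p = 0.0079, adjusted p = 0.0794). The mean of Cacnb1 was lower and that of Cacnb2 higher at ZT8, and neither gene nor the pair passed in these tests. With limma fitted on the 10 pairs in place of the permutation, an alternative added after the data were seen, this was the 1 pair that passed (adjusted p = 0.0139). For Cacnb2 minus Cacnb4 the means were 2.31 ± 0.170 and 2.10 ± 0.140 (difference 0.21, exact permutation p = 0.0794, adjusted p = 0.159), with overlap. Cacnb1 minus Cacnb4 differed by 0.03 (exact permutation p = 0.754).

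Cacng4 minus Cacng6 was 1.12, 1.07, 1.14, 1.06 and 1.07 in ZT8 replicates 1 to 5, and 0.97, 0.92, 0.93, 1.07 and 0.99 in ZT20 replicates 1 to 5. ZT20 replicate 4 was level with the lowest ZT8 arrays and the other ZT20 arrays were below them. The means were 1.09 ± 0.0356 and 0.97 ± 0.0597, a difference of 0.12 (exact permutation p = 0.0159, adjusted p = 0.0794). Without ZT20 replicate 4 this pair and Cacnb1 minus Cacnb2 both had an adjusted p of 0.0397.

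For the α2δ genes, Cacna2d1 minus Cacna2d3 was 4.15 ± 0.141 at ZT8 and 3.91 ± 0.153 at ZT20 and differed by 0.24 (exact permutation p = 0.0556, adjusted p = 0.159). Cacna2d1 minus Cacna2d4 differed by 0.23 (exact permutation p = 0.0794) and Cacna2d1 minus Cacna2d2 by 0.17 (p = 0.159). Cacna2d1 lies in bin 5 of signal level and the other α2δ genes in bins 2 and 3. After quantile normalization these pairs differed by 0.13 with Cacna2d3, 0.14 with Cacna2d4 and 0.09 with Cacna2d2. The part of signal level in these pairs was not tested. Among the pairs without Cacna2d1 the differences lay between -0.01 and 0.07, with exact permutation p-values from 0.191 to 0.913. In the plot of pairs, the groups lie apart for Cacnb1 minus Cacnb2 and overlap in the other panels.

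**Figure D3:**
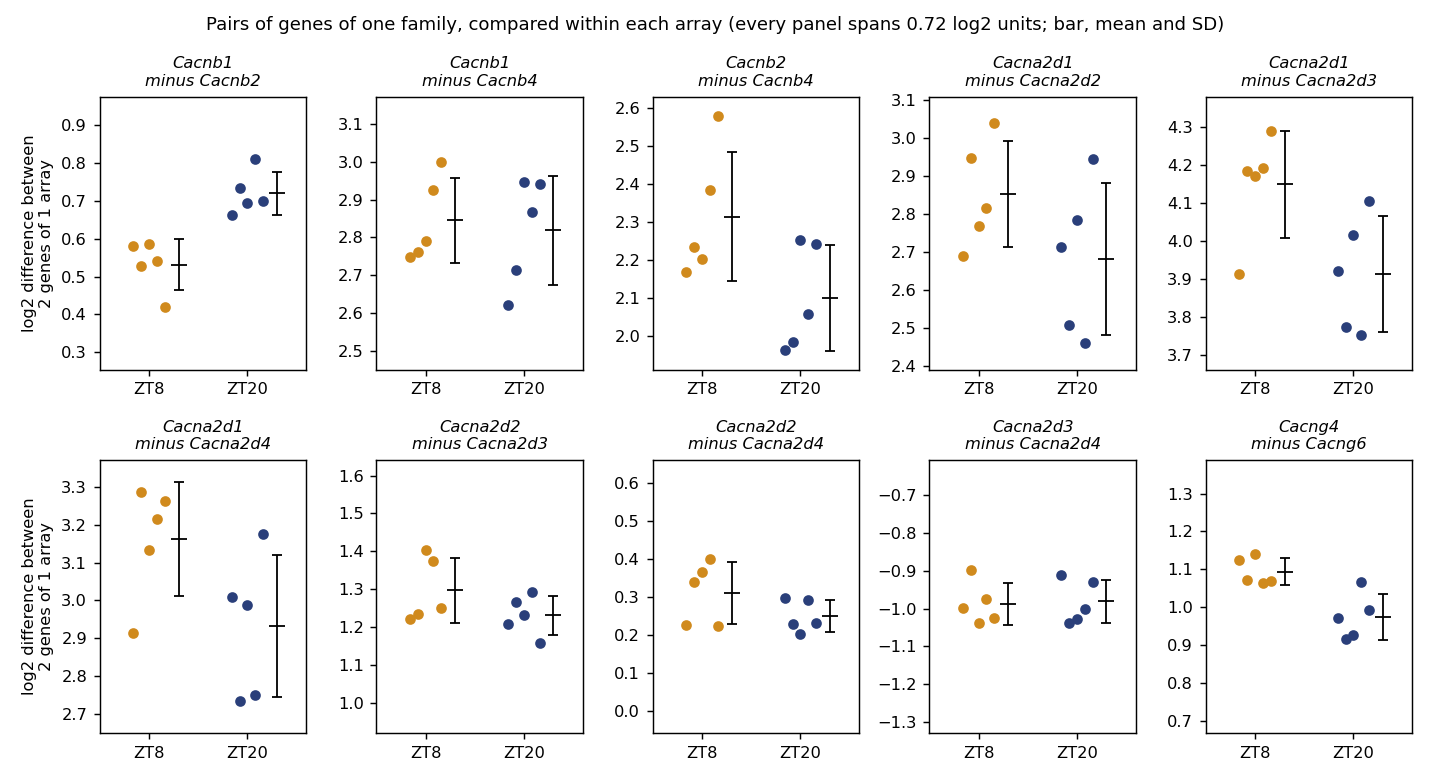
The log2 signal of one gene minus that of another of the same family on the same array (vertical axis, the same width in every panel), in 5 ZT8 and 5 ZT20 arrays. Points are arrays, and bars give the mean and SD. The groups lie apart for Cacnb1 minus Cacnb2 (0.42 to 0.59 at ZT8, 0.66 to 0.81 at ZT20).

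The accessory subunits act on a pore, and the genes of the pore and of other channel proteins were read from lists of 34 genes, of which 28 had a row that names them alone. None of the 28 passed the adjusted test, with 2 higher and 4 lower at ZT8 at unadjusted p under 0.05, a count near the 18.5% of all tested rows. All 10 genes of the pore-forming α1 subunits were measured. Cacna1g, which encodes a T-type pore, was 6.94, 6.85, 6.88, 6.88 and 6.89 in ZT8 replicates 1 to 5, and 6.97, 7.06, 7.10, 7.09 and 7.12 in ZT20 replicates 1 to 5. The groups did not overlap, in 1 of 10 pore genes against 5.92% of all tested rows in either direction and 2.54% with ZT8 lower. The difference of -0.18 (SE 0.05) likewise missed the threshold (limma, adjusted p = 0.0788, and exact permutation p = 0.0079). The L-type pore genes of the β-cell, Cacna1c (8.98 ± 0.0637 and 8.95 ± 0.1) and Cacna1d (9.23 ± 0.0511 and 9.16 ± 0.0938), differed by 0.03 and 0.06 (limma, adjusted p = 0.803 and 0.541). The pore genes had a median of -0.06 and were negative in 8 of 10 cases, against 61.9% of all tested rows. Their mean signals lay in bins 2 to 5 of signal level, where the negative share went from 77.6% to 29.0%.

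The other γ subunit genes, 5 of 6 measured, had a median difference of -0.12 and none passed. The brightest were Cacng7 (6.80 ± 0.102 and 6.91 ± 0.0812) and Cacng3 (5.46 ± 0.118 and 5.59 ± 0.128), both members of the group that accompanies glutamate receptors. Of the RGK GTPases, small G proteins that bind the β subunits and reduce calcium current, 3 of 4 were measured and none passed. Rem2, the member known from insulin-secreting cells, had a difference of -0.02 and Gem one of -0.07 (adjusted p = 0.861 and 0.814). Of 14 further partners of the channel 10 were measured. At unadjusted p under 0.05 stood Nedd4, a ubiquitin ligase (0.11), Rims2, a scaffold of the release site that binds β subunits (0.13), the adaptors Stac (-0.13) and Stac2 (-0.14), and Thbs1, a secreted ligand of α2δ (-0.22). Their adjusted p-values lay between 0.214 and 0.268, and none passed.

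**Figure D4:**
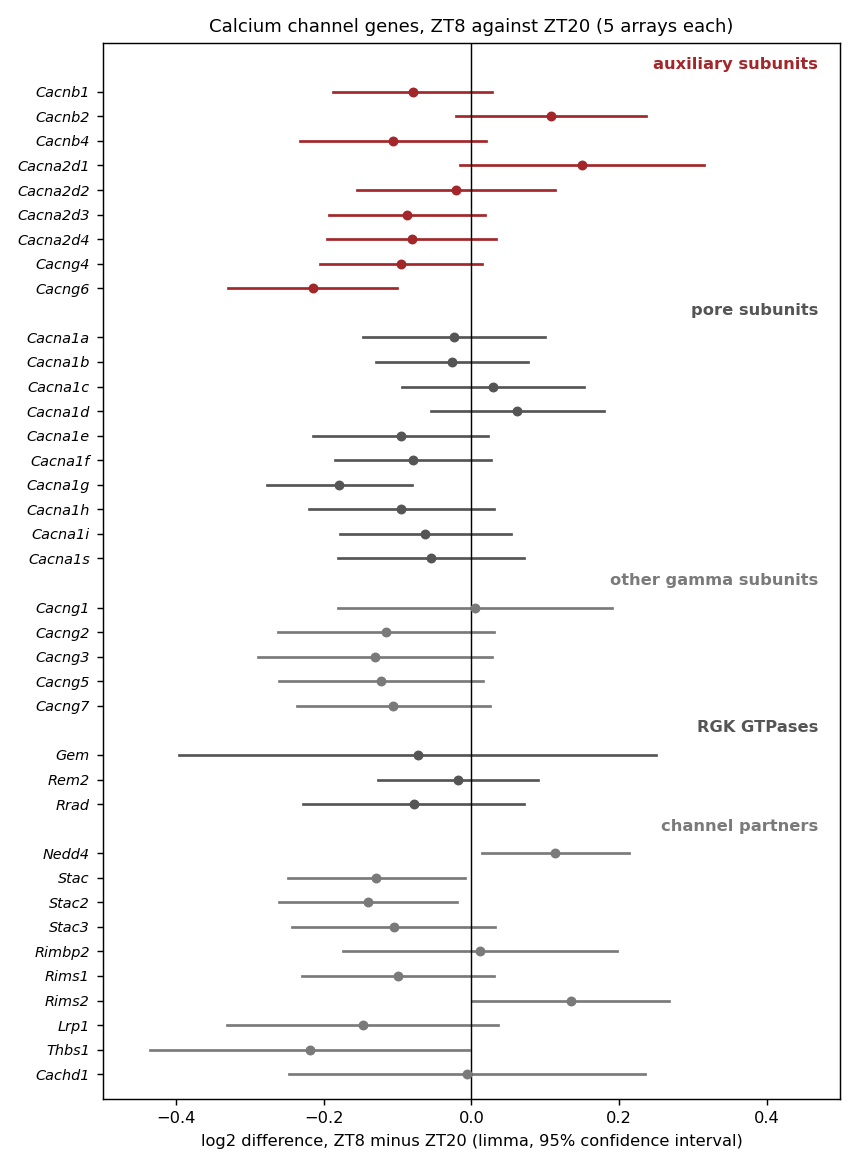
The difference in log2 signal, ZT8 minus ZT20, of 9 auxiliary subunit genes and 28 other calcium channel genes in 4 lists (points, with 95% confidence intervals from limma, 5 arrays per group). The unadjusted interval excludes 0 for Cacng6 among the auxiliary subunits and for Cacna1g among the pore subunits, and neither passed after adjustment.

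The RNA came from whole islets, and in such bulk samples fewer cells of a type and less RNA per cell cannot be told apart. The labelled tissue was borne out by hormone genes of high signal in every array, with Ins2 at 13.2 ± 0.0499 and 13.2 ± 0.0413, Gcg at 12.1 ± 0.117 and 12.1 ± 0.116, and Sst at 12.6 ± 0.104 and 12.7 ± 0.0809 at ZT8 and ZT20. Markers of 11 cell types were read, 42 of 48 genes measured, and none passed the adjusted test. At unadjusted p under 0.05 stood 2 of the 42, below the 18.5% of all tested rows: Cd3e, a T cell gene (-0.14), and Alas2, an erythroid gene (-0.15). The 5 measured of 6 acinar genes, of the exocrine cells that surround islets, had high signal and varied between arrays of a group, with a mean from 10.3 to 11.8 at ZT8 and from 10.3 to 11.6 at ZT20. Every measured gene was negative in 5 lists of other cell types, against 61.9% of all tested rows: mural and smooth muscle (5 genes, median -0.14), leukocyte (4, -0.15), endothelial (4, -0.07), neuron and glia (4, -0.02) and erythroid (2, -0.11). Other lists went the other way, with 0 of 5 acinar genes negative (median 0.21), 0 of 2 alpha cell genes (0.02) and 2 of 8 beta cell genes (0.08). Negative were also 1 of 3 delta cell genes, 2 of 4 duct cell genes and the 1 PP cell gene. Over all tested rows the negative share went with signal level, from 81.6% in bin 1 to 29.0% in bin 5. The mean levels of the beta cell and acinar lists lay in the range of bin 5. Those of the erythroid and the neuron and glia lists lay in the range of bin 3, with 71.1% negative. The part of signal level in these counts was not tested. The mean level of each of these lists overlapped between the groups, for the mural genes from 6.98 to 7.37 at ZT8 and from 7.10 to 7.47 at ZT20. Their part in the differences of the subunit genes was not tested.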

How the data were processed

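Islet RNA was labelled with the WT Pico kit and read on 1 one-colour array per sample, 5 at ZT8 and 5 at ZT20. The deposited values are log2 signals per transcript cluster that the authors normalized, by GCRMA per a supplementary heading of the study. Affymetrix Expression Console is named in the submitters' processing notes, while no source used here gives its settings, its version or the build of the genome. The methods name another array type than the row identifiers of the table. The same heading gives 5 animals per genotype, read here as per group since the study has no genotypes. Precision is limited by having 5 arrays in each. Values lay between 1.66 and 13.7, and each of the 10 columns belonged to 1 sample.

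Values were used as deposited. Of 72688 rows, 65956 are transcript rows, and the 32814 that name at least 1 gene in the platform's gene table were fitted with limma 3.58.1 (lmFit and eBayes, R 4.3.3), two-sided, with Benjamini-Hochberg adjustment over these rows and a threshold of 0.05. A gene was read from its brightest row that names it alone. Cacnb3 had none, and 10 pairs within families could be formed where 13 would exist with Cacnb3. Single values and pairs were compared by exact permutation. Members and lists were chosen with earlier results of these data known. All subunit genes with a row are named. From each list of pathway genes, those at unadjusted p under 0.05 are named and otherwise the 2 with the highest mean, and Cacna1c and Cacna1d were named after their values were seen. List genes without a row of their own, among them Cacng8, Rem1 and Ahnak, were not analysed here. Alternatives were other array scalings, rows and variance priors, array weights, the replicate number as a block, the methods' t-test, the mean over a gene's rows, and each array left out in turn. The mean over a gene's rows could not change a result, since each of the 9 genes had 1 row. The procedure was tested on simulated data. It recovered 58% of planted 1.3-fold changes, 82% of 1.5-fold changes and 100% of 2-fold changes. Smaller changes, such as those of the subunit genes, were not simulated. The simulated noise was independent between rows, without the shifts that rows of an array share here. The recovered shares may therefore not hold for these arrays. Permutations ran in scipy 1.17.1 under Python 3.11.15, with pandas 2.3.3 for tables, matplotlib 3.10.9 for plots and numpy 2.4.6.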

Additional observations from a re-analysis of the deposited data

Results flagged for a closer look

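In 3 of the 18 gene and group combinations, 1 array lay far from the other 4 of its group by Dixon's criterion for 5 values (ratio above 0.71), a criterion that chance alone meets in some groups. Cacnb1 was 8.11 in ZT20 replicate 1, with the other ZT20 arrays between 8.25 and 8.29 (ratio 0.747). Cacng4 was 6.59 in ZT8 replicate 5, with the other ZT8 arrays between 6.73 and 6.77 (ratio 0.765). Cacng6 was 5.98 in ZT20 replicate 2, with the other ZT20 arrays between 5.77 and 5.83 (ratio 0.711, just past the criterion).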

How the results depend on the processing

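The adjusted call was 0 subunit genes in all settings but array weights, where it was 1 (Cacng6). All 9 were tested in each setting except above the median level. There 6 were tested, without Cacnb4, Cacna2d3 and Cacng6. Other row sets, priors, the block, the methods' t-test and the mean of a gene's rows leave a difference as it is, so its sign could turn only with another scaling, array weights or an array left out. It did so for Cacna2d2 alone, in 6 settings. Cacna2d2 was 0.0314 with centred arrays, 0.00936 after quantile normalization and 0.0339 with array weights, and lay between -0.047 and 0.0142 with 1 array left out. Subunit genes at unadjusted p under 0.05 numbered 3 with centred arrays, 2 after quantile normalization, 0 of 6 above the median level, 2 with array weights and 1 to 4 with 1 array left out, against 1. Genes at exact permutation p under 0.05 numbered 1 with centred arrays, 2 after quantile normalization and 1 to 5 with 1 array left out, against 4. Pairs passing numbered 0 to 2 with 1 array left out, the 2 without ZT20 replicate 4.

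Over all rows, 186 were higher and 58 lower at ZT8. The count was 492 higher with centred arrays (52 lower), 42 and 13 after quantile normalization, 423 above the median level (44 lower), 1 and 0 over all transcript rows, 407 and 109 with a trended and robust prior, 598 and 232 with array weights, and 2 and 0 by the methods' t-test. With 1 array left out it was 1 to 358 higher and 0 to 69 lower. The cause was not tested. The counts by t-test used p-values adjusted over all tested rows and no cut on fold. The study's supplementary heading gives a Welch t-test with a cut on fold and names no adjustment. The counts by t-test here are therefore not those of the study's own rule.

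The replicate number as a block gave 39 rows higher and 12 lower. By limma with the replicate block 4 pairs passed (Cacnb1 minus Cacnb2, Cacnb2 minus Cacnb4, Cacna2d1 minus Cacna2d3 and Cacna2d1 minus Cacna2d4). By limma without it, an alternative added after the data were seen, 1 passed (Cacnb1 minus Cacnb2), and by exact permutation 0. Samples of the same number did not deviate together in every case (r = 0.31, 0.28, -0.13, -0.12 and 0.35). These values do not settle whether arrays of the same number share more than that number. ZT8 replicates 1, 2 and 5 correlated best with their own number and replicates 3 and 4 did not. The signals of 3 of the 9 genes lay above every background control row.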
